A study of Mus musculus with 2 samples.

Results

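The set described here is the 7807 DNase-hypersensitive peaks that both hindbrain libraries held in the deserts of the genome, far from any protein-coding gene. A peak of replicate 1 entered the set if it overlapped a peak of replicate 2 by at least 1 bp, if its midpoint lay outside every annotated gene body, coding or non-coding, and if it lay more than 200 kb from every protein-coding transcription start site (TSS). These remote peaks were 6.99% of the 111722 shared peaks. The rule used position and overlap and no score. The study applied DNase-seq, which marks chromatin that the nuclease DNase I can cut, to hindbrain tissue of healthy mouse embryos of strain B6NCrl at embryonic day 14.5, with males and females pooled. It held 1 group of 2 biological replicates and no other tissue, stage, genotype or treatment. Each replicate was a separate tissue sample, but both labels name the same donor record, so the spread between libraries may not cover the spread between litters. Whole hindbrain mixes neurons, progenitors, glia, vessels and blood, and a peak does not say in which of these cells the site was open.

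Gene deserts are long stretches without protein-coding genes. Those beside genes that control development are known to hold enhancers, sequences that raise transcription of a gene from a distance by looping to its promoter. The loops and the domains that confine them are bounded in large part by CTCF, a zinc-finger protein that binds a long motif and halts the cohesin ring. Enhancers of the developing nervous system are bound by homeodomain, SOX, POU and basic helix-loop-helix factors, among others.

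The following 8 remote peaks carry the main features of the set and are given whole, from the plus strand of GRCm38 (mm10) as RefSeq gives it, 5′ to 3′. Capitals mark the CTCF consensus and the homeodomain core TAATTA on either strand, and a sequence without capitals held neither. The first ranks second among all remote peaks by mean score rank over both libraries.

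Eipr1–Myt1l, chr12:29291096-29291245: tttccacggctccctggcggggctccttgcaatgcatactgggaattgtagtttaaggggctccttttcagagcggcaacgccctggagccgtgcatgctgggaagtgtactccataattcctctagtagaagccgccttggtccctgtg

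The next is the remote peak farthest from any protein-coding TSS, 2544 kb from that of Pcdh20.

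Pcdh20–Pcdh9, chr14:91014836-91014985: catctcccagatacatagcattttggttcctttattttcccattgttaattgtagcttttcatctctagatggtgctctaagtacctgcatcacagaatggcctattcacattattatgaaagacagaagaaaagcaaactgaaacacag

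The next 3 are the strongest remote peaks with a CTCF match for which sequence is printed here, and the third of them lies in the second largest run of remote peaks.

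Tmem161b–Ccnh, chr13:84758616-84758765: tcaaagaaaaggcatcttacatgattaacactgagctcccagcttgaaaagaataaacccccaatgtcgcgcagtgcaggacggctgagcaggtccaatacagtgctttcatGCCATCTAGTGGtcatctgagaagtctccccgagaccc
Slc8a1–Pkdcc, chr17:82857616-82857765: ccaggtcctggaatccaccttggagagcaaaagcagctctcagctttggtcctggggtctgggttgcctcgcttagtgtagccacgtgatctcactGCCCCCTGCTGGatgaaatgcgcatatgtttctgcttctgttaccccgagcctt
BC052040–Meis2, chr2:115855956-115856105: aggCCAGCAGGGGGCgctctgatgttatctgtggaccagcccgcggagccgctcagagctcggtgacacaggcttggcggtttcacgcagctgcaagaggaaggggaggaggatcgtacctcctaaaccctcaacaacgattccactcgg

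The last 3 are the strongest remote peaks of 3 of the 5 densest deserts, and the second of them holds TAATTA.

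Mki67–Mgmt, chr7:136046756-136046905: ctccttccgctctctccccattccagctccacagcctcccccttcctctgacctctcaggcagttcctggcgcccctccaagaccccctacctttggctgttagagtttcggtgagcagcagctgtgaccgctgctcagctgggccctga
Nphp4–Ajap1, chr4:152732136-152732285: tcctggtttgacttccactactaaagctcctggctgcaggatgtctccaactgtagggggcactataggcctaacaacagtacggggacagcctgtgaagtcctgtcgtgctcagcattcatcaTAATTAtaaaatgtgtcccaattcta
Meis1–Spred2, chr11:19713236-19713385: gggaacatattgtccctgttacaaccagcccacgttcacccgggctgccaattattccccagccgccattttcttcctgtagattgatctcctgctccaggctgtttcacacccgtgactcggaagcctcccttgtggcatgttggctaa

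Over the whole genome there were 263679 peaks in replicate 1 and 148804 in replicate 2, and 42.4% of the replicate 1 peaks overlapped one of replicate 2. The peak lists carry scores and not read counts, and sequencing depth is therefore unknown. At the promoters, a shared peak lay within 1 kb of a TSS for 10 of 11 genes of hindbrain position, all but Hoxa3, for 6 of 6 genes of neurons and progenitors, and for 3 of 10 genes of other tissues. Those 3 were Emx1 of the cerebral cortex, Myod1 of muscle and Col1a1 of connective tissue. The defining genes of liver (Alb, Afp), red cells (Hbb-bt), endothelium (Cdh5) and leukocytes (Ptprc) had none. The share over all protein-coding genes was not computed, so these counts alone cannot tell whether the listed genes stand out.

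Remote peaks were sparse. The territory in which one could lie, counted as sequenced bases that meet the distance rule, was 554 Mb or 20.9% of the genome. It held 14.1 remote peaks per Mb, against 42.2 shared peaks per Mb over the whole genome. Outside gene bodies the density of shared peaks fell with every step away from genes. It was 92.9 per Mb within 10 kb of a protein-coding TSS, 37.7 from 10 to 50 kb, 32.9 from 50 to 100 kb and 25.4 from 100 to 200 kb. Beyond the 200 kb limit it was 20.5 per Mb up to 300 kb, 16.9 up to 500 kb, 10.02 up to 1000 kb and 5.55 farther out. There was no step at the limit itself: 347 remote peaks lay from 200 to 210 kb, with median scores of 65 in replicate 1 and 29 in replicate 2, and 367 shared peaks lay from 190 to 200 kb, with medians of 63 and 28. The median remote peak was 358 kb from a protein-coding TSS, 2136 were more than 500 kb away and 425 more than 1000 kb.

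**Figure D1:**
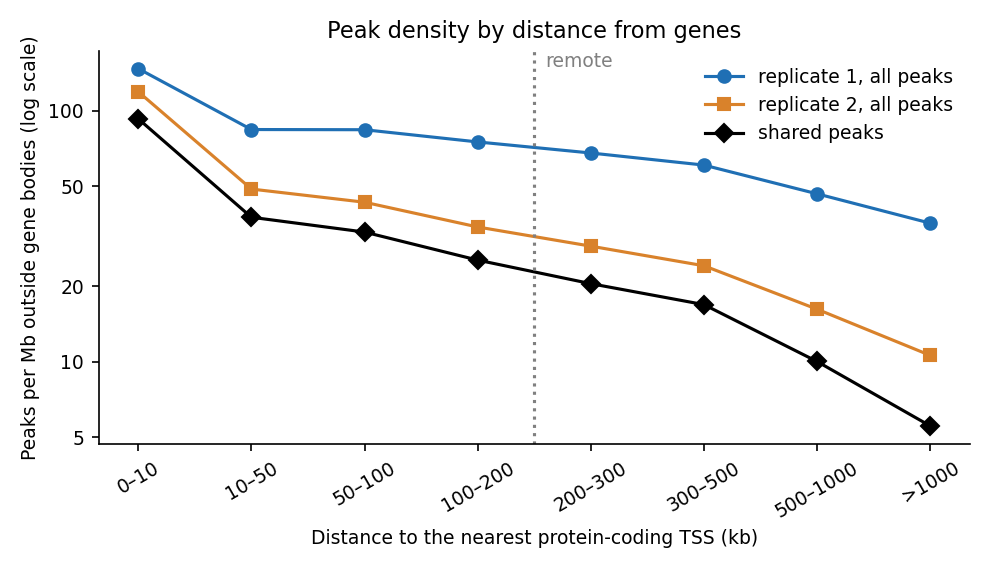
Peaks per Mb of sequence outside gene bodies (log scale) by distance to the nearest protein-coding TSS, for all peaks of replicate 1 (circles), all peaks of replicate 2 (squares) and peaks shared by both (diamonds). Beyond the dotted line at 200 kb lie the remote peaks, whose density falls to 5.55 per Mb past 1000 kb.

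The fall with distance was seen in each library alone and was steeper in replicate 2. Replicate 1 had 67.9 peaks per Mb from 200 to 300 kb and 35.7 past 1000 kb. Replicate 2 had 28.9 and 10.6 per Mb in those bands. In all, the territory held 30323 peaks of replicate 1 and 11629 of replicate 2, so the ratio of the libraries was 2.61 there, against 1.77 over the genome.

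Of the replicate 1 peaks in the territory, 25.7% were shared (Wilson 95% interval 25.3% to 26.2%), and so were 69.8% of the replicate 2 peaks (68.9% to 70.6%). Replicate 1 peaks between genes but within 200 kb of a protein-coding TSS were shared in 41.3% of cases (40.9% to 41.7%), and those of replicate 2 in 77.1%. These intervals cover counting error over peaks only. Remote peaks were weaker, and with the nearer peaks weighted to the score deciles of the remote ones their shared share was 30.2%. Within score deciles the remote share was below the nearer one in deciles 1 to 9 and not in the strongest. In the lowest decile, with scores up to 27, it was 3.66% (3.20% to 4.19%) for remote peaks and 6.13% (5.61% to 6.69%) for nearer ones. In decile 9 it was 92.0% (90.6% to 93.2%) for remote peaks and 93.9% (93.3% to 94.4%) for nearer ones. In the highest decile, with scores of 98 or more, it was 98.8% (97.6% to 99.4%) for remote peaks and 98.3% (97.9% to 98.6%) for nearer ones.

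The scores of remote peaks ran from 11 to 146 in replicate 1, with a median of 62, and from 4 to 119 in replicate 2, with a median of 27. The deposited score is a whole number whose meaning is not stated, so it is compared here within a library. Shared intergenic peaks within 200 kb had medians of 69 and 33 in replicates 1 and 2, those in gene bodies 68 and 32, and those at promoters, within 1 kb of any TSS, 96 and 54. Remote peaks of a single library were weaker still, with a median of 34 for the 22516 of replicate 1 and 13 for the 3514 of replicate 2. The ranges of all these classes overlap widely, and the remote peaks differ most in the upper tail. A score in the top 10% of its library (at least 98 in replicate 1 and 76 in replicate 2) was reached by 8.17% of remote peaks in replicate 1 and 2.05% in replicate 2, against 15.6% and 7.27% of nearer intergenic peaks. Over the 7807 remote peaks the scores of the libraries had a Spearman correlation of 0.771 and a Pearson correlation of 0.768, a description over peaks that share both libraries. The paired midpoints lay a median of 20 bp apart.

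**Figure D2:**
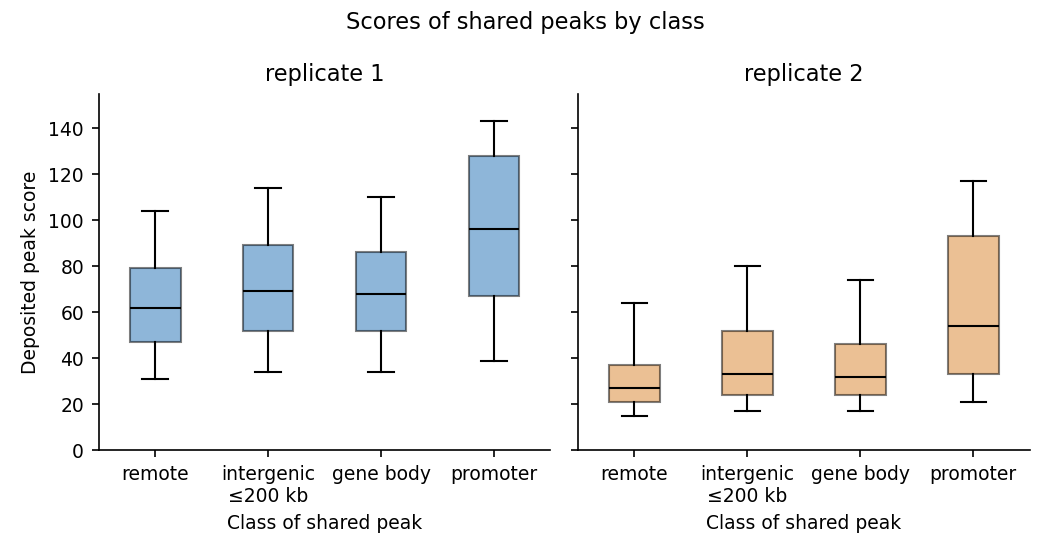
Deposited peak scores by class of shared peak in replicate 1 (left) and replicate 2 (right). Boxes give the quartiles with the median as a line and whiskers reach the 5th and 95th percentiles over peaks. Remote peaks, at the left of each panel, have the lowest median of the 4 classes in both libraries (62 and 27).

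Nearly all remote peaks lay in hotspots, the wider regions of enriched cutting that the authors called in each library. The share inside a hotspot of both libraries was 98.4% (98.1% to 98.6%) for remote peaks and 98.9% (98.7% to 98.99%) for nearer intergenic ones. All 7807 lay in a replicate 1 hotspot, and 7679 also lay in one of replicate 2. Shared peaks of every other class also all lay in a replicate 1 hotspot, and each overlaps a replicate 2 peak by rule. A high share in both libraries therefore follows at least in part from the rule and is not particular to remote peaks. The hotspot −log10 q-value was at its deposited cap of 100 for 69.8% of remote peaks in replicate 1 and 21.2% in replicate 2, against 74.4% and 38.9% of nearer ones. The hotspots of remote peaks had a median length of 382 bp in replicate 1 and 211.5 bp in replicate 2, against 359 and 261 bp for nearer intergenic peaks, so they were longer in replicate 1 and shorter in replicate 2.

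Several of the strongest remote peaks lay at the start of a gene that the annotation does not type as protein-coding. Of the 10 with the highest mean score rank, 6 lay within 1 kb of such a TSS, against 202 of all 7807 (2.59%). The second strongest was not among the 6. It lay between Eipr1 and Myt1l, a transcription factor of neurons, 237 kb from the TSS of Myt1l, and scored 146 and 112 in replicates 1 and 2. A pair at the start of Gm26901, between Pcmtd1 and Sntg1, scored 141 and 139 in replicate 1 and 114 for both in replicate 2. The peak beside the start of 2610035D17Rik, 13 bp away, lay between Slc39a11 and Sox9, a transcription factor of progenitors and glia. It scored 136 in replicate 1 and 106 in replicate 2. Those at Epb41l4aos (137 and 105), A230028O05Rik (134 and 104) and Gm4258 (142 and 94) completed the 6. Others of the 10 lay between Adamts6 and Cwc27 (138 and 102) and between Inhba, an activin subunit, and Gli3, a transcription factor of Hedgehog signalling (135 and 101).

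All 10 were rich in GC, with 52.0% to 67.3%, against a median of 46.0% over the remote peaks. The 202 peaks near such a TSS had median scores of 71 in replicate 1 and 32 in replicate 2, and the other 7605 had 62 and 27. By type of gene, 122 of the 202 were nearest to the start of a lincRNA, 23 to a processed pseudogene, 17 to a gene still to be experimentally tested (TEC) and 13 to a T-cell receptor V segment, which is a coding segment with a type of its own. The peak farthest from any protein-coding TSS, in the desert between Pcdh20 and Pcdh9, ranked 1546 among the 7807, with scores of 79 in replicate 1 and 40 in replicate 2. The next farthest, between Cntnap5b and Cdh20, scored 40 and 15 at 2496 kb, and the third, again between Pcdh20 and Pcdh9, scored 64 and 29 at 2425 kb.

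Remote peaks were spread unevenly over deserts. A desert is here the territory between neighbouring protein-coding TSSs, and 819 of 1079 deserts (75.9%) held at least 1 remote peak. The densest deserts that make up 10% of the territory held 37.9% of remote peaks. The same measure was 27.4% for all replicate 1 peaks and 34.9% for all replicate 2 peaks. Among deserts of at least 500 kb of territory alone, it was 34.0% for remote peaks. The deserts were ranked by the same counts, so the share would exceed 10% even for peaks placed at random. It also rises as peaks get fewer, so the shares of these sets are not on an equal footing. Over the 356 deserts with at least 500 kb of territory, chromosome Y included, the median density was 9.23 remote peaks per Mb, with quartiles of 4.13 and 19.1. The densities of the libraries over these 356 deserts had a Spearman correlation of 0.840 and a Pearson correlation of 0.847, as a description, since deserts share base composition as well as tissue. The GC content of a desert and its density of remote peaks had a Spearman correlation of 0.474. With chromosome Y left out, the 82 of these deserts lowest in GC held 6.42 remote peaks per Mb, the next 82 held 9.78, the next 82 held 11.9, and the 83 highest in GC held 28.1. Larger deserts were sparser, with 29.4 remote peaks per Mb in deserts under 100 kb of territory, 22.2 from 100 to 500 kb, 16.9 from 500 to 1000 kb, 10.04 from 1000 to 2000 kb and 7.31 above that. These size classes include chromosome Y.

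The densest deserts of at least 500 kb lay on both sides of Zfp608, which encodes a zinc-finger protein. Between Csnk1g3, a casein kinase gene, and Zfp608 there were 56 remote peaks at 87.7 per Mb, from 141 replicate 1 and 71 replicate 2 peaks. Between Zfp608 and Gramd3 there were 80 remote peaks, the most of any desert, at 81.6 per Mb, from 208 and 120 peaks of replicates 1 and 2. Together they held 136 remote peaks at 84.0 per Mb. Their median scores were 66 and 72 in replicate 1 and 31 and 30.5 in replicate 2, a little above the medians of all remote peaks. In GC content, at 40.8% and 39.8% of the territory, these deserts were less extreme than others of high density.

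**Figure D3:**
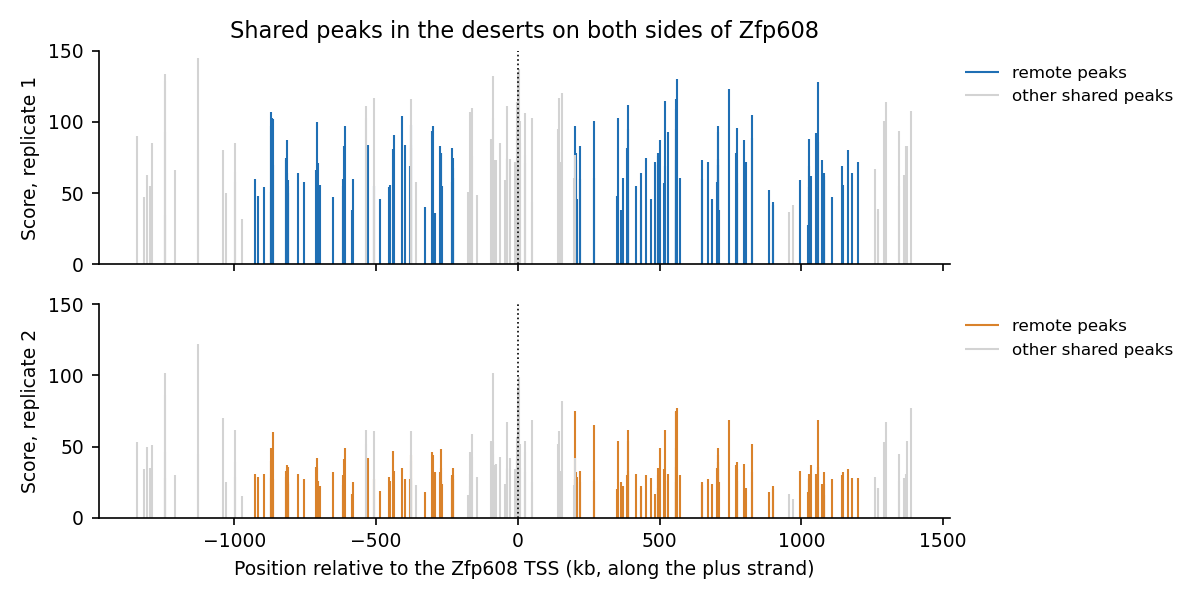
Shared peaks within 1400 kb of the Zfp608 TSS, each drawn as a line as high as its score in replicate 1 (top) or replicate 2 (bottom). Coloured lines are the 136 remote peaks and grey lines the other shared peaks; remote peaks stand along the whole of both deserts and not in one block.

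The third, between Mki67, whose product marks dividing cells, and Mgmt, a DNA repair gene, held 47 remote peaks at 69.8 per Mb. Then came Nphp4 to Ajap1 with 35 at 59.0 per Mb and Meis1 to Spred2 with 29 at 57.8 per Mb. Meis1 encodes a homeodomain partner of Hox proteins. Cdh26 to Cdh4, both cadherin genes, held 34 at 55.8 per Mb. Sox2, a transcription factor of neural progenitors, to Atp11b held 36 at 55.1 per Mb, and Auts2, a neuronal chromatin regulator, to Castor2 held 60 at 55.0 per Mb. Rnf144b to Id4, an inhibitor of basic helix-loop-helix factors, held 28 at 54.8 per Mb. Tshz3 to Zfp536, both zinc-finger genes, held 29 at 52.9 per Mb. Adamts16 to Irx1, of the Iroquois homeodomain family, held 26 at 48.3 per Mb, and Vrk1 to 3110018I06Rik held 44 at 48.1 per Mb. By all peaks of 1 library, these 12 deserts ranked at 19 or better in replicate 1 and at 21 or better in replicate 2 among the 356. The deserts were picked for peaks present in both libraries, so high ranks in each follow in part from the choice and are no separate support.

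**Figure D4:**
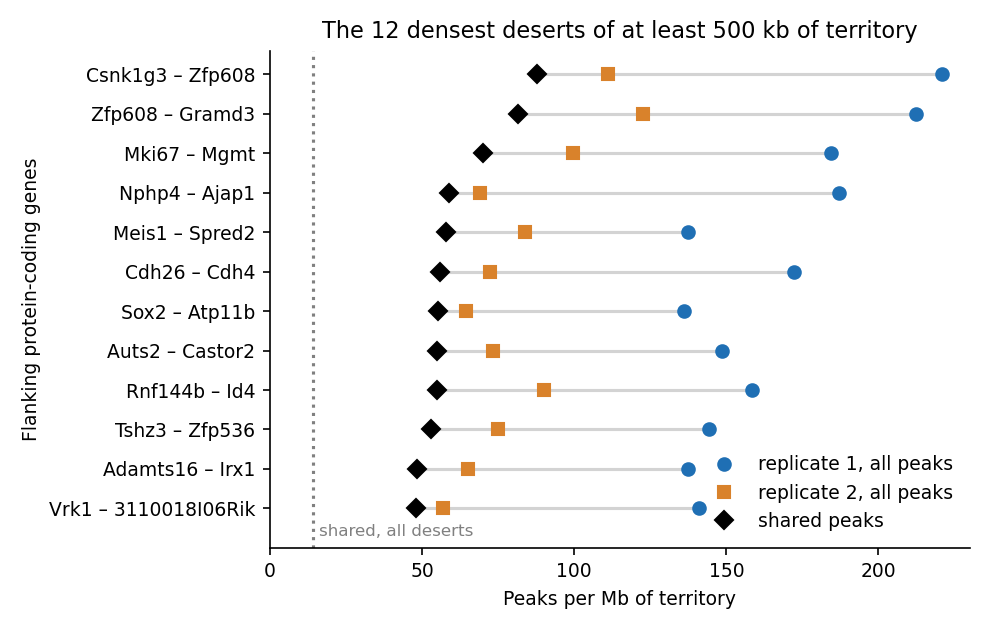
Density of shared peaks (diamonds), all replicate 2 peaks (squares) and all replicate 1 peaks (circles) per Mb of territory in the 12 densest deserts of at least 500 kb, densest at the top. All 12 lie far above the dotted line, the 14.1 shared peaks per Mb over all deserts.

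The 12 deserts with the most remote peaks held 596, or 7.63% of all, in 2.89% of the territory. Besides 5 of those above, they were Celf4 to Pik3c3 with 53, Nr2f1, a nuclear receptor of neural patterning, to Arrdc3 with 47, and Tmem182 to Pou3f3, a POU factor, with 46. Further ones were Hace1 to Grik2, a glutamate receptor subunit, with 43, Npvf to Nfe2l3 with 41, Tmem132b to Tmem132c with 40, and Rps24 to Zmiz1 with 39. Npvf to Nfe2l3 and Rps24 to Zmiz1 were under the 500 kb minimum and were dense, at 116 per Mb in 353 kb and 88.7 per Mb in 439.9 kb. Hace1 to Grik2 and Celf4 to Pik3c3 were long and near the overall density, at 14.0 and 14.7 per Mb.

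At the other end, chromosome Y held 4 remote peaks in 37.6 Mb of territory (0.106 per Mb) and chromosome X 142 (4.05 per Mb), against 15.9 per Mb on the autosomes. The 5 largest deserts without a remote peak all lay on chromosome Y and were 96.2% to 98.98% repeat, against 44.7% of the whole territory. How the authors treated reads of repeats is not given in the sources used here, and the part of this in the low density was not tested. Outside chromosome Y the 5 largest empty deserts, chosen after their values were seen, were all on chromosome X. The longest of them, from 4930595M18Rik to Dmd, the dystrophin gene, held 14 replicate 1 peaks and 1 replicate 2 peak in 1086 kb, none of them shared. The tissue was of pooled sexes, so fewer copies of X per cell and fewer open sites on it cannot be told apart. Autosomal deserts could also be long and sparse. Pcdh20 to Pcdh9, at 3985 kb the largest of all, held 28 remote peaks (7.03 per Mb), Olfm4 to Pcdh17 held 20 (5.08 per Mb) and Slc39a10 to Tmeff2 held 18 (5.14 per Mb).

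By flanking gene, deserts beside transcription factors of the nervous system were the densest of the lists examined. Of 115 listed factors, 63 flanked 76 deserts, and 72 of the 76 held a remote peak. These deserts held 32.1 remote peaks per Mb, against 13.9 per Mb in deserts beside no listed gene and 14.1 per Mb over all. Of the 356 deserts of at least 500 kb, 29 had such a flank. Their median was 30.9 per Mb against 9.23 over all 356, and 26 of the 29 were above that overall median. Both libraries showed it alone, with 96.3 replicate 1 and 44.2 replicate 2 peaks per Mb in these deserts, against 54.7 and 20.99 over all. Listed factors flanked 6 of the 12 densest deserts and 23 of the 89 densest, and 1 of the 89 sparsest. The 356 deserts, and the 13.9 and 14.1 per Mb, include chromosome Y, at 0.106 remote peaks per Mb. No listed factor flanked a desert there. On the autosomes the density was 15.9 per Mb. The part of chromosome Y in these contrasts was not tested. The median GC content of the 29 deserts was 39.9%, against 38.1% over all 356. The part of GC content in the difference was not tested, nor was that of desert size, with which density also varied. The gene lists were chosen with earlier results of these data known, so the difference is a description.

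The listed genes did not all have dense deserts. From 500 kb upward the range ran from Meis1 to Spred2 at 57.8 per Mb down to Pou3f4 to Gm6377, on chromosome X, with 3 remote peaks at 2.48 per Mb. Beside the Meis1 deserts, Sall3 to Galr1 held 33 at 45.4 per Mb and Tshz1 to Zfp516 held 27 at 41.7 per Mb. Nfib to Mpdz held 23 at 40.2 per Mb, Sall1 to Tox3 36 at 39.8 per Mb and Pou3f3 to Tmem182 46 at 37.3 per Mb. Zic1, a factor of the cerebellum and dorsal hindbrain, to Tbc1d2b held 19 at 27.7 per Mb. Low values were found at Rorb to Anxa1, with 7 at 8.70 per Mb, and at Zfhx4 to Hnf4g, with 10 at 8.60 per Mb. Among shorter deserts Meis2 to BC052040 held 15 in 81.3 kb, Irx3 to Irx5 held 13 in 129 kb and En1, a marker of the midbrain and hindbrain border, to Insig2 held 16 in 251 kb. Some genes are on this list although their products do not bind DNA as sequence-specific factors, Id2, Id4 and Auts2 among them.

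Deserts beside genes of axon guidance and adhesion were near the overall level. With 61 of the 62 listed genes in the annotation, 52 flanked 72 deserts, which held 10.8 remote peaks per Mb. The 45 of at least 500 kb had a median of 10.4 per Mb, and 26 of them were above the overall median. The highest of these, Dcc, a netrin receptor, to Mex3c, held 24 at 31.0 per Mb, and Lsamp, a neuronal adhesion protein, to Igsf11 held 18 at 28.2 per Mb. Deserts beside cadherins and protocadherins were sparse, at 6.94 per Mb with a median of 6.15 over 26 deserts, 7 of them above the overall median. The densest of the 26 was Cdh26 to Cdh4, at 55.8 per Mb, and Cdh18 to Basp1 held 23 at 16.5 per Mb. Pcdh7 to G6pd2 held 13 at 3.82 per Mb. The deserts on either side of Cdh2 differed, with 10 remote peaks at 18.4 per Mb towards Chst9 and 2 at 0.842 per Mb towards Dsc3. Of the 5 largest deserts 3 had such a flank, and the median GC content of the 26 was 37.1%. Deserts beside chemosensory receptors were 8 with 2.02 Mb of territory, too few for a level of their own, and 4 of them held a remote peak.

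Many remote peaks lay close to another one, though a smaller share did so than among nearer peaks. The distance from a remote peak to the next remote peak had a median of 9.72 kb, with quartiles of 1.13 and 34.4 kb, against 4.62 kb (0.760 and 17.8 kb) for intergenic peaks within 200 kb. A neighbour within 12500 bp was found for 55.0% of remote peaks and 68.7% of nearer ones. The nearer peaks are also denser, and no level for randomly placed peaks was computed. Whether remote peaks are more or less clustered for their density was therefore not tested. Linked at 12500 bp, the remote peaks made 5105 runs, of which 3511 were single peaks. Runs of 3 or more numbered 576 and held 2260 peaks, 28.9% of the set, and 130 runs had 5 or more. In 8104 windows of 50 kb, chromosome Y left out, the mean was 0.704 remote peaks with a variance 2.05 times the mean, 61.3% of windows were empty, and 1 window held 21. Peaks of a run share a locus and are not independent sites.

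The largest run held 15 remote peaks in 13.5 kb between Npvf and Nfe2l3 (chr6:51168156-51181665), 251 kb from the TSS of Nfe2l3. Replicate 1 alone had 20 peaks there and replicate 2 had 24, with more in replicate 2 than in replicate 1. Its best score was 127 in replicate 1 and 89 in replicate 2. A run of 13 in 8.69 kb (chr2:115852216-115860905) lay between BC052040 and Meis2, a homeodomain gene, 204 kb from the TSS of Meis2, with 16 peaks in each library and best scores of 121 and 82. It holds the CTCF-bearing peak printed above. Another run of 13 spanned 42.1 kb between Slc7a11 and Noct, and runs of 11 spanned 19.3 kb between Mtx2 and Hnrnpa3 and 37.6 kb between Tshz3 and Zfp536. A further run of 11, between Gm26897 and Cryba4, spanned 57.2 kb.

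In GC and CpG content remote peaks stood between the nearer peaks and the desert around them, and they held the least repeat sequence of the 3. Their median GC content was 46.0%, against 50% for nearer intergenic peaks and 38.0% for all 150 bp windows laid over the territory. Repeats covered 7.24% of remote peaks on average, against 8.97% of nearer peaks and 44.7% of the windows. The ratio of observed to expected CpG had a median of 0.232, against 0.276 and 0.0855.

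The CTCF consensus was found, on either strand, in 227 remote peaks, 2.91% (2.56% to 3.30%). It was found in 0.0277% of the territory windows, or in 0.0505% with the windows weighted to the GC content of the remote peaks. Nearer intergenic peaks held it in 8.44% of cases (8.12% to 8.77%), peaks in gene bodies in 6.53%, and remote replicate 1 peaks without a partner in 0.324%. The share was 8.78% in nearer peaks weighted to the GC content of the remote ones and 6.17% in those weighted to their scores. By distance it was 10.9% from 1 to 10 kb, 10.2% to 50 kb, 6.22% to 100 kb and 4.61% to 200 kb, and among remote peaks 2.96% to 300 kb, 2.86% to 500 kb, 2.98% to 1000 kb and 2.59% (1.45% to 4.57%) beyond. The interval was 4.08% to 5.20% from 100 to 200 kb and 2.39% to 3.65% from 200 to 300 kb. So the share declined up to the first remote band, and the remote bands did not differ beyond their intervals. Weighted to the GC content of the remote peaks, the remote bands had 2.97%, 2.90%, 3.36% and 1.80%. The matches sat a median of 18 bp from the peak midpoint, 117 on the plus and 110 on the minus strand.

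Remote peaks with a CTCF match were strong. Their median scores were 78 in replicate 1 and 52 in replicate 2, against 62 and 27 for the other remote peaks. Over 5 classes of equal size by mean score rank, from weakest to strongest, the share with a match was 1.34%, 1.47%, 1.22%, 1.67% and 8.83% (7.53% to 10.3%). So it was flat in the lower classes and higher in the strongest one. Nearer intergenic peaks within the same score bounds held a match in 2.12%, 2.86%, 3.23%, 6.10% and 16.6% of cases, more than remote peaks in every class. Of the 100 strongest remote peaks 10 held a match, against 2 of the 100 strongest nearer intergenic peaks. These 2 sets are not matched in score: the scores of the remote 100 were at least 103 in replicate 1 and those of the nearer 100 at least 128. The 10 include those between Tmem161b and Ccnh (scores of 124 and 92 in replicates 1 and 2), between Slc8a1 and Pkdcc (115 and 96) and between BC052040 and Meis2 (121 and 82). The share was 2.46% (1.90% to 3.19%) in the 89 densest deserts and 3.10% (2.24% to 4.28%) in the 178 sparsest, a difference within the intervals.

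The homeodomain core TAATTA ran the other way. It was found in 850 remote peaks, 10.9% (10.2% to 11.6%), against 6.40% (6.12% to 6.69%) of nearer intergenic peaks and 6.83% of the territory windows. TAATTA holds no G or C, so its share depends on base composition. With GC content matched to the remote peaks it was 8.94% in nearer peaks and 2.81% in the windows. By distance it was 3.78% from 1 to 10 kb, 5.82% to 50 kb, 7.36% to 100 kb, 9.20% to 200 kb, 9.65% to 300 kb, 10.8% to 500 kb, 11.9% to 1000 kb and 15.8% beyond. Weighted to 1 GC content it was 6.05%, 8.80%, 9.44% and 10.7% in the bands up to 200 kb and 10.97%, 11.1%, 10.1% and 11.7% in the remote bands, so the weighted values showed no steady increase past 100 kb. It was more frequent in weak remote peaks, at 12.9% of the weakest class and 8.32% of the strongest. Remote replicate 1 peaks without a partner held it in 11.9% of cases.

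**Figure D5:**
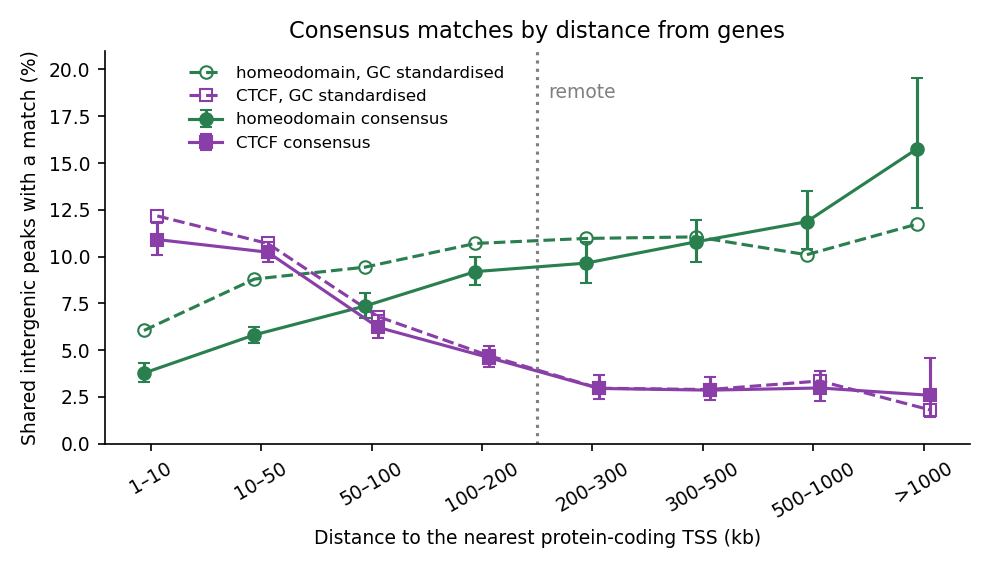
Share of shared intergenic peaks with a CTCF match (squares) or the homeodomain core (circles) by distance to the nearest protein-coding TSS. Filled symbols give the share with its Wilson 95% interval and open symbols the share weighted to the GC content of the remote peaks. The CTCF share levels off near 3% beyond the dotted line at 200 kb, and the homeodomain share rises to 15.8% past 1000 kb but to 11.7% once weighted.

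Other short consensus sequences were each sought on both strands, and window shares are given as counted and then weighted to the GC content of the remote peaks. The E-box CAGCTG was in 17.5% of remote peaks (16.6% to 18.3%), 15.9% of nearer peaks and 3.94% of windows, or 6.57% weighted. The joint HOX and PBX site TGATTNAT was in 5.11% of remote peaks (4.64% to 5.62%), 3.11% of nearer peaks and 3.35% of windows, or 1.87% weighted. TGACAG of MEIS was in 16.1% of remote peaks, 13.2% of nearer peaks and 8.68% of windows, or 10.4% weighted. The E-box CAGATG, which proneural factors bind, was in 19.4% of remote peaks, 17.0% of nearer peaks and 10.9% of windows, or 13.1% weighted. For SOX, GATA and TEAD factors the weighting turned the direction against the windows. CATTGTT of SOX factors was in 3.38% of remote peaks (3.003% to 3.81%), 2.52% of nearer peaks and 3.501% of windows, or 2.80% weighted. AGATAA of GATA factors was in 8.75% of remote peaks (8.14% to 9.40%), 6.09% of nearer peaks and 11.8% of windows, or 7.60% weighted. GGAATG of TEAD factors was in 9.38% of remote peaks (8.75% to 10.04%), 9.31% of nearer peaks and 8.38% of windows, or 10.3% weighted. It was the only one of the 16 consensus sequences less frequent in remote peaks than in the weighted windows. The octamer ATTTGCAT of POU factors was in 2.45% of remote peaks, 1.88% of nearer peaks and 1.67% of windows, or 1.19% weighted. With nearer peaks weighted to GC as well, their shares were 2.44% for ATTTGCAT, 4.01% for TGATTNAT, 3.06% for CATTGTT and 7.74% for AGATAA, so that of ATTTGCAT was level with the remote share. The weighted nearer shares were 13.0% for CAGCTG, 16.8% for CAGATG, 12.9% for TGACAG and 9.24% for GGAATG. The long consensus of nuclear factor I was in 3.14% (2.77% to 3.55%) of remote peaks and 3.06% of nearer peaks, that of RFX factors in 0.628% and 0.722%, and that of the neuronal repressor REST in 7 remote peaks. Weighted to GC, the nearer shares were 2.66% for nuclear factor I and 0.703% for RFX factors. A match describes the letters of the window and not binding, and windows without one say nothing of the factor.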

How the data were processed

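DNase-seq peaks and hotspots of 2 hindbrain libraries of embryonic day 14.5 were used as deposited. The authors called both separately for each replicate on mm10, per the labels and the text deposited with the samples; no aligner, peak caller or threshold is named in what was used here. Each deposited peak is 150 bp wide and has a score, a whole number of unstated meaning. Each deposited hotspot has a −log10 q-value, capped at 100. Neither file holds counts, so depth, and the precision it gives, is unknown.

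Only chromosomes 1 to 19, X and Y were used, which left out 253 peaks of replicate 1 and 303 of replicate 2. Gene models were the GENCODE M21 basic set and sequence was GRCm38 from RefSeq, soft-masked for repeats. Territory is sequence without assembly gaps, outside every gene body and more than 200 kb from the TSS of every basic transcript of a protein-coding gene. Shared intergenic peaks within 200 kb, the main comparison, leave out those within 1 kb of any TSS, whereas remote peaks include them. Remote peaks keep the positions of replicate 1, and 149 of them share a replicate 2 partner with another one.

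Wilson 95% intervals cover counting error only. Peaks are not replicates and there is 1 group, so no test was run and no p-value is given. GC weights use bins of 2%, and windows tile the territory at 150 bp. For the 16 consensus sequences, matches on either strand were counted. Computation used Python 3.11.15, numpy 2.4.6, pandas 2.3.3 and scipy 1.17.1, and the functions were tested on simulated data with known answers. The members, gene lists and consensus sequences were chosen with earlier results of these data known. The named deserts are the 12 densest of at least 500 kb, the 12 with the most members, the 5 largest without a member and those of the 5 largest runs; the named peaks are the 10 strongest, the 3 farthest, the strongest of the 5 densest deserts and the strongest with a CTCF match; any listed flanking gene could be named. Of these, 1 strong peak and 1 desert are not reported here. The largest deserts, the empty deserts outside chromosome Y and the run at Cryba4 were chosen after their values were seen. Alternatives for overlap, distance, score, annotation, chromosomes and linking distance were tried. The weighting of nearer peaks to GC content or score was added after the data were seen.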

Additional observations from a re-analysis of the deposited data

How the results depend on the processing

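Of 62 alternatives to the main values, 34 stayed within the spread set for each value and 28 moved it. With a single library in place of the shared peaks, the count was 11629 to 30323, the density 20.99 to 54.7 per Mb, the share with a neighbour within 12500 bp 70.3% to 81.7% and the CTCF share 0.989% to 2.08%; the higher value came from replicate 1 for all but CTCF. The count and density of replicate 2 alone stayed within the limit. Requiring 50% overlap gave 22.4% shared and 99.9% in hotspots of both. A limit of 100 kb gave 13392 peaks, 28.6% shared and a score correlation of 0.783. A limit of 500 kb gave 2136 peaks, 8.64 per Mb, 40.4% with a neighbour, 19.96% shared and a correlation of 0.754. Keeping peaks at or above their library's median score gave 3163 peaks, 5.71 per Mb, 41.1% with a neighbour, 31.4% shared, 5.47% with CTCF, 99.9% in hotspots, a correlation of 0.626 and 46.3% in the densest 10% of territory. Counting territory without repeats gave 25.5 per Mb. A neighbour was found within 5 kb for 39.5% and within 25 kb for 68.3%. The GC-weighted windows of the territory, counted as 1 of the alternatives, held the CTCF consensus in 0.0505%, against 2.91% of remote peaks. The cause of these moves was not tested, beyond those the construction fixes. Among nearer peaks, the weightings gave CTCF shares of 8.78% and 6.17%, homeodomain shares of 8.94% and 7.05%, and 30.2% shared.

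No paired analysis was possible because the replicates form 1 group and no result comes from a test. Depth is unknown, so whether the larger number of peaks in replicate 1 comes from more reads cannot be told.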

Other observations

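Replicate 2 held dense arrays of weak peaks in some deserts, which the overlap rule removed almost entirely; these windows were picked after their values were seen. Of the 491 deserts with at least 5 remote peaks, 9 had more replicate 2 than replicate 1 peaks, although replicate 1 had 2.61 times as many over the territory. Cntnap5b to Cdh20 had 112 peaks in replicate 2 and 86 in replicate 1, with 12 remote shared peaks. A single 50 kb window there held 62 replicate 2 peaks with a median score of 5, 1 replicate 1 peak and 1 shared peak. Windows with 29 replicate 2 peaks between Slco6d1 and Cntnap5b and with 27 and 23 between Cdh8 and Cdh11 had median scores of 5 and 6, and held 1 to 4 replicate 1 peaks. By contrast, a window between Npvf and Nfe2l3 held 34 replicate 2 peaks with a median score of 34, 31 replicate 1 peaks and 21 shared peaks, so there both libraries were dense.

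Tmem161b to Ccnh also stood out between the libraries. It ranked second by density in replicate 2 and at rank 56 in replicate 1, with 66 and 50 peaks, and held 26 remote shared peaks at 46.0 per Mb. One window of it held 21 replicate 2 peaks with a median score of 6 and 6 replicate 1 peaks. The same desert holds the strongest remote peak with a CTCF match.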
